A study of Mus musculus with 6 samples.

Results

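The glucocorticoid-responsive genes described here are Nr3c1, which encodes the glucocorticoid receptor, and 5 genes known as its targets in T cells: Fkbp5, Tsc22d3, Per1, Ddit4 and Sgk1. They were found by their symbols and make up 6 of the 32285 genes in the matrices. The set was chosen by gene name with the mutant-minus-WT differences of these same libraries already known, so those differences count as having selected it and are given as a description, with no p-value. In all kept T cells Fkbp5 was higher in both mutant libraries than in both WT libraries, by a log2 fold change of 0.64 ± 0.13 (SE, n = 2 and 2). The other 5 genes did not follow it as a group. Nr3c1, Per1 and Ddit4 were above 0 by less (0.14, 0.41 and 0.17), and Tsc22d3 and Sgk1 were below 0 (-0.31 and -0.62). The sign of Tsc22d3 changed with the mix of cells. Across T cell states the genes had different maxima, and Tsc22d3 was highest in naive- or memory-like cells. Ddit4 and Nr3c1 had their highest mean in cells resembling T follicular helper cells (Tfh-like). Fkbp5 had its highest mean there too, but through the mutant libraries: within each WT library other classes were higher.

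Glucocorticoids are steroid hormones that enter the cell and bind a receptor held in the cytoplasm by a chaperone complex of Hsp90 and its partners. The bound receptor moves to the nucleus, where it binds DNA as a dimer at a palindromic element and raises or lowers nearby genes. In T cells these hormones are known for restraining activation and cytokine production, for driving death of thymocytes, and for daily changes in trafficking. Fkbp5 encodes an Hsp90 co-chaperone that lowers the receptor's affinity for hormone and is itself induced by it, a short feedback loop. Its rise is often used as a readout of hormone exposure.

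The cells were OT-II CD4+ T cells, whose transgenic receptor recognises ovalbumin. They came from OTII+/+RAG-/- donors, which make no B cells and no T cells with other receptors. Donors were WT or TgfbrIWT/mut, that is heterozygous for the M318R change knocked into Tgfbr1, which encodes the type I TGF-beta receptor. The allele is a knock-in at the gene's own locus, so no Cre or transgene promoter limits it to T cells. Cells of both genotypes went into CD45.1 WT hosts, which keep their own lymphocytes and their own hormone production, and the hosts drank 1.5% ovalbumin in water for 7 days. On day 8, CD45.2+CD45.1-CD4+CD8-TCRβ+ cells were sorted from Peyer's patches. There were 2 WT libraries (WT 1, WT 2) and 2 mutant libraries (mutant 1, mutant 2). The labels name no steroid treatment, give no ages for donors or hosts, and do not say that libraries came from separate animals, so p-values measure the spread between libraries, which may be technical. Hashtag antibody tags are present in the WT matrices only, so that handling cannot be told apart from genotype.

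After filtering, 2972 T cells were kept (WT 1277 and 631, mutant 882 and 182), with library totals of 1705481 to 12053787 unique molecular identifiers (UMIs, counted transcript molecules). The median was 8638 to 9034 UMIs per cell. Trac, Cd3e and Cd4 were detected in every library, with Cd4 at 315 to 417 CPM (UMI counts scaled by each library's total after adjusting that total with edgeR's TMM factors), while Cd8a was at 0 to 1.13 CPM. Any pair of libraries shared at most 2 kept cell barcodes. Tgfbr1 itself was at 31.4 and 26.0 CPM (WT) against 27.8 and 17.6 CPM (mutant); its 3′ counts do not check the point mutation. Early response and heat shock transcripts differed between the genotypes: Fos was at 269 and 182 CPM (WT) against 83.8 and 55.0 CPM (mutant), and Hspa1a at 197 and 116 CPM against 37.0 and 85.6 CPM. Naive- or memory-like cells were 21.6% and 12.4% of cells in WT 1 and WT 2, against 3.63% and 7.14% in mutant 1 and mutant 2. A low-UMI cluster, cluster 9 (median 3329.5 UMIs, 7.504% mitochondrial), made up 1.17% and 3.17% against 6.69% and 13.2%. The summed B cell marker list was 173 and 233 CPM (WT) against 301 and 331 CPM (mutant), most of it Ighm, with 1 of its 8 genes at 0 in every library and Cd79b at 1.13 to 2.28 CPM. Xist was at 488 and 545 CPM (WT) against 407 and 445 CPM (mutant), and 4 Y-linked genes summed to 127 and 131 CPM against 192 and 159 CPM, so every library held transcripts of both kinds. The part of these differences in the results below was not tested, except where values without a cell class are given.

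The receptor's dimer site is shown first. Among the target genes an exact copy was found near a start of Sgk1 only, and such a copy is rare in any promoter. The palindrome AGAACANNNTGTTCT was searched with no mismatch, and its hexamer AGAACA on both strands (TGTTCT is the same letters read from the other strand), in the 250 bases before each start in RefSeq's promoter table for GRCm38.p6. Of 32851 such windows, 3 held the full palindrome (0.0091%), and 5284 (16.1%) held at least 1 hexamer, those inside a full palindrome included. The table had 13 windows for the genes: 6 for Sgk1, 3 for Tsc22d3, 2 for Per1, 1 each for Ddit4 and Fkbp5, and none for Nr3c1. One Sgk1 window, chr10:21993640-21993889 on the plus strand, is among the 3 with the full palindrome, which lies at chr10:21993701-21993715, 189 to 175 bases before the start. It is printed with the hexamers in capitals, together with the Fkbp5 window, chr17:28486150-28486399 on the minus strand, which held neither motif, and 30 bases around the hexamer of Tsc22d3 at chrX:140600702-140600707 on the minus strand.
Sgk1: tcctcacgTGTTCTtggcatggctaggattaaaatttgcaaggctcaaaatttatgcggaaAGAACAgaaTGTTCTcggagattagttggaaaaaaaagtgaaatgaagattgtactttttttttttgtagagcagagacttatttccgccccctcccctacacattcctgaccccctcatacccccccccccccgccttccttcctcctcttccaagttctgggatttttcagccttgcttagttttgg
Fkbp5: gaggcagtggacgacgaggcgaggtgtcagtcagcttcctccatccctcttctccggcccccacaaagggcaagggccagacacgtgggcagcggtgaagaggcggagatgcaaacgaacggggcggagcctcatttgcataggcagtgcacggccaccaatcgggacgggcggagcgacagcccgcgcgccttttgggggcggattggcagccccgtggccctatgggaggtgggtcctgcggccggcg
Tsc22d3: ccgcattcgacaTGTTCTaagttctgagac
The hexamer was also present in 2 further Sgk1 windows, and no window of Per1 or Ddit4 held one. A match describes letters in the window and not a bound site, and elements that act from introns or at a distance lie outside it.

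By genotype, the receptor itself differed little. Nr3c1 (chr18:39410545-39519421, minus strand, GRCm38) was at 104 and 105 CPM (WT) against 116 and 114 CPM (mutant), with a log2 fold change of 0.14 ± 0.13 (SE). The mutant libraries lay just above the WT ones.

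Fkbp5 (chr17:28399094-28517527, minus strand) was at 83.8 CPM in WT 1, 96.3 CPM in WT 2, 138 CPM in mutant 1 and 141 CPM in mutant 2, from 249 to 1068 UMIs per library. In the annotation 2 other RNAs overlap it on the same strand, and reads from shared exons cannot be told apart. Both mutant libraries lay above both WT libraries, and the ratio of the means was 1.55. Of the 6 genes, it was the one with an adjusted p under 0.05 in edgeR's quasi-likelihood test over all genes. Of the 10727 genes tested, 1.44% were past that threshold (0.904% higher and 0.531% lower in the mutant). This contrast chose the genes, so nothing is read from the call or the count. The call does not set Fkbp5 apart from the rest of the 6. As a description, the Fkbp5 difference lay between 0.53 and 0.73 over 18 alternative settings. It was not past that threshold with DESeq2, without WT 1 (0.53), without mutant 1 (0.64), without naive- or memory-like cells, with the epithelial-named cells kept and with all barcodes.

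Ddit4, also called REDD1, encodes an inhibitor of the growth kinase complex mTORC1 and also responds to hypoxia and energy stress. It lies at chr10:59949669-59951834, minus strand, and was at 127 and 130 CPM (WT) against 139 and 151 CPM (mutant) (log2 fold change 0.17 ± 0.13). Per1 (chr11:69095217-69109960, plus strand), a repressor in the circadian clock, was at 11.5 and 9.84 CPM against 14.2 and 14.7 CPM (0.41 ± 0.22), from only 26 to 136 UMIs per library. For both genes the mutant libraries lay above the WT libraries.

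Tsc22d3 encodes GILZ, a mediator of the hormone's anti-inflammatory action, and lies at chrX:140539528-140600659 on the minus strand. It went the other way over all cells, with 60.5 and 47.4 CPM (WT) against 45.2 and 41.4 CPM (mutant) (log2 fold change -0.31 ± 0.16). Sgk1 (chr10:21882184-21999903, plus strand), a kinase that acts on ion channels and FoxO factors, was at 10.5 and 9.49 CPM against 5.05 and 10.8 CPM (-0.62 ± 0.31). The Sgk1 libraries overlapped, as mutant 1 was the lowest of the 4 and mutant 2 the highest, and its sign rested on mutant 1: without that library the difference was 0.08. Counted together, 4 of the 6 genes had both mutant libraries above both WT libraries and 1 had both below, where 23.2% and 22.9% of all genes tested did so.

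**Figure D1:**
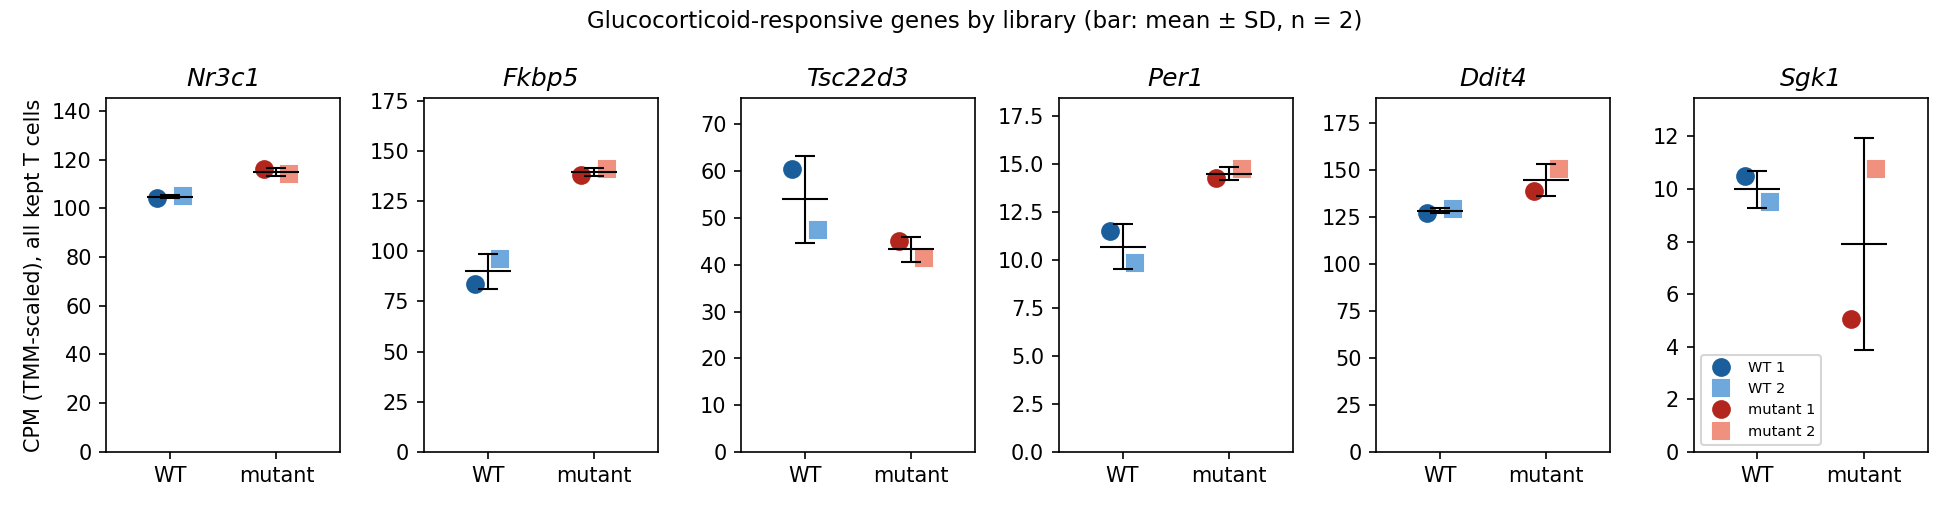
Level of each of the 6 genes in CPM (y axis, from 0, scaled separately for each gene) in the 2 WT libraries (blue) and 2 mutant libraries (red), summed over all kept T cells; black bars are the mean and SD of 2 libraries. The Fkbp5 points sit at 83.8 and 96.3 CPM in WT and at 138 and 141 CPM in the mutant, while the Sgk1 points of the 2 genotypes overlap.

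The mix of cell states differed between libraries, so the genotype values were recomputed with the mix altered. In 1 setting the 4 clusters with at least 20 cells in every library (0, 1, 3 and 4) were given equal weight. Clusters 0 and 3 are both Tfh-like, and all other clusters, the naive- or memory-like cells among them, were left out. This setting therefore does not weigh all T cell states equally. Fkbp5 kept a difference of 0.66, whereas Nr3c1, Per1 and Ddit4 were at -0.01, 0.04 and 0.10. Tsc22d3 turned from -0.31 to 0.35 in that setting, and without the naive- or memory-like cells it was at -0.01, while Fkbp5 was at 0.60. Without cluster 9 the Fkbp5 difference was 0.67.

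**Figure D2:**
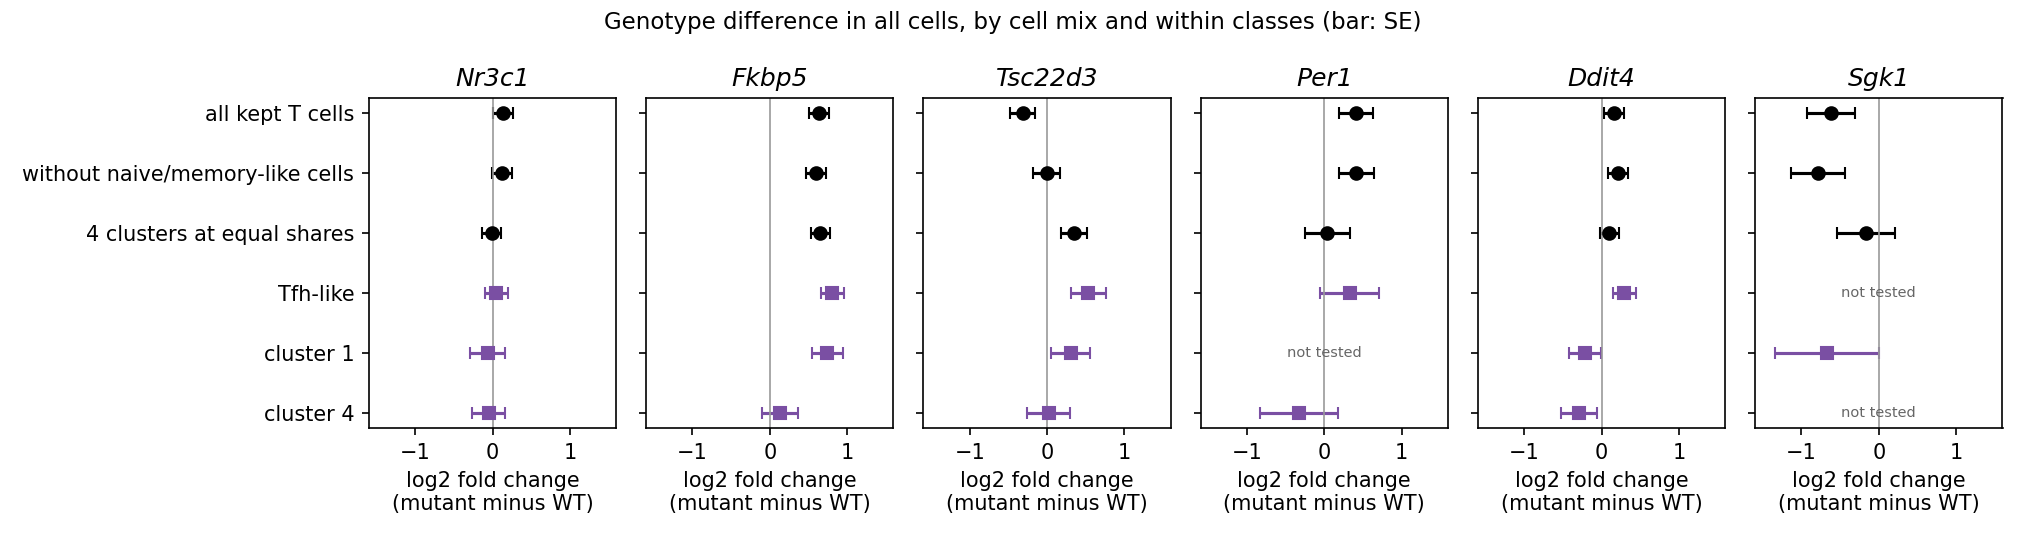
Log2 fold change (mutant minus WT, x axis; points with SE) of each gene in all kept T cells, without naive- or memory-like cells, with 4 clusters at equal shares (black), and within Tfh-like cells, cluster 1 and cluster 4 (purple). Fkbp5 lies right of 0 in every line and close to it in cluster 4 (0.13). Tsc22d3 moves from -0.31 in all kept T cells to 0.35 with the 4 clusters, 0, 1, 3 and 4, at equal shares. The label "not tested" marks a gene with too few UMIs.

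Only 3 classes had at least 20 cells in every library: Tfh-like cells (813 cells, clusters 0 and 3), cluster 1 (431 cells) and cluster 4 (320 cells), the last 2 without enough markers for a name. In Tfh-like cells, with CPM scaled within that class, Fkbp5 was at 95.4 and 103 CPM (WT) against 164 and 193 CPM (mutant) (log2 fold change 0.81 ± 0.15). Tsc22d3 was at 25.6 and 25.8 CPM against 35.1 and 43.6 CPM (0.54 ± 0.23), the opposite direction to that over all cells. Ddit4 was at 186 and 175 CPM against 197 and 261 CPM (0.29 ± 0.15), and Nr3c1 at 138 and 125 CPM against 137 and 134 CPM (0.05 ± 0.15). Per1 was at 12.8 and 7.44 CPM against 11.4 and 18.4 CPM (0.33 ± 0.38), from 11 to 40 UMIs per library. In these cells 3 genes, Fkbp5, Tsc22d3 and Ddit4, thus had both mutant libraries above both WT libraries, as did 18.5% of the genes tested in the class. Sgk1 had 8 or 9 UMIs in each library and was not tested.

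The 2 clusters that make up the Tfh-like class were unevenly filled, since cluster 3 held 212 of the 377 Tfh-like cells of mutant 1 but 73 of 201 in WT 1. Fkbp5 was higher in the mutant libraries within each. In cluster 0 it was at 103 and 112 CPM against 219 and 188 CPM (log2 fold change 0.96 ± 0.17). In cluster 3 it was at 88.2 and 94.1 CPM against 131 and 202 CPM (0.74 ± 0.21). Tsc22d3 was less even. In cluster 0 mutant 1 alone was high (60.05 CPM against 27.4 to 30.8 CPM in the other libraries). In cluster 3 mutant 2 alone was high (60.6 CPM against 19.5 to 20.9 CPM). Ddit4 overlapped between the genotypes in both clusters. It was at 166 and 174 CPM against 199 and 157 CPM in cluster 0 (0.13 ± 0.16). In cluster 3 it was at 218 and 180 CPM against 197 and 370 CPM (0.37 ± 0.22).

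Outside the Tfh-like cells the picture for Fkbp5 was mixed. In cluster 1 it was at 74.7 and 85.7 CPM (WT) against 123 and 156 CPM (mutant) (0.74 ± 0.20). In cluster 4 the libraries overlapped, with 109 and 135 CPM against 162 and 78.6 CPM (0.13 ± 0.23). Ddit4 had a negative difference in both clusters. In cluster 1 it was at 102 and 105 CPM (WT) against 84.3 and 101 CPM (mutant) (-0.21 ± 0.21), and in cluster 4 the difference was -0.29 ± 0.23. Over the 9 classes with at least 1 library of each genotype, every mutant library was above every WT library for Fkbp5 in 7. Of 9700 genes, 2% did so in at least 7 classes. The exceptions were cluster 4 and cluster 9. On a CPM scale shared by all classes, the mean log2 difference in cluster 4 was -0.11. Cluster 9 went the other way, with mutant 1 and mutant 2 at 131 and 75.6 CPM, below WT 2 at 168 CPM, from 10 to 31 UMIs. The count with every mutant library above was 5 for Nr3c1 and Per1, 3 for Tsc22d3 and Ddit4 and 1 for Sgk1. Of all genes, 14.2% did so in at least 5 classes, 51.3% in at least 3 and 93.2% in at least 1. Every mutant library was below every WT library in 5 classes for Ddit4, 4 for Sgk1 and 3 for Tsc22d3. That count was 1 for Nr3c1 and Fkbp5 and 0 for Per1, and it was not made over all genes. Nothing is read from these counts, which use the contrast that chose the genes. Most of these classes had 1 mutant library only, and the classes share libraries.

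Whether the genotype difference itself differed between these classes (Tfh-like minus cluster 1) was examined with a class-by-genotype term, a measure that the choice of genes did not use. For Fkbp5 the difference of the log2 fold changes was 0.07 (95% interval -0.36 to 0.50), where edgeR gave an adjusted p of 0.9993. For Ddit4 it was 0.46 (0.02 to 0.89), where edgeR gave an adjusted p of 0.9475; the intervals are not adjusted for the number of genes. For Tsc22d3 it was 0.18 (-0.45 to 0.81) and for Nr3c1 0.09 (-0.37 to 0.56), and the intervals of Per1 and Sgk1 were wider still. Of 8745 genes, 11 passed (0.126%) and 445 had an unadjusted p under 0.05. None of the 6 genes passed. For Fkbp5 both ends of the interval were smaller in size than its difference within either class (0.81 and 0.74). The model leaves 2 residual degrees of freedom per gene, so its error is pooled over all genes. An interval can thus be too narrow for a gene that varies more between libraries, and equal differences in the 2 classes are not read from it. When the genes and lists were kept in the clustering, the 2 classes compared became Tfh-like and receptor-stimulated-like cells, and the term was 1.56 for Tsc22d3 and 0.91 for Ddit4. Those classes were formed in part from the values compared, so no test is attached. In the comparison of Tfh-like cells with cluster 1, the Tsc22d3 term moved from 0.18 to 1.50 without mutant 1 and to -0.12 without mutant 2. The value of 1.50 lies outside the interval given above.

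The levels across states are given as means over libraries of class sums of at least 20 cells, on a CPM scale shared by all 30 sums. Classes were formed from the same cells, although the 6 genes and the lists around them were left out of the clustering, so no test is attached. Tsc22d3 had the widest range as a ratio of its highest to its lowest class mean. It was at 136, 166 and 190 CPM in the naive- or memory-like sums of WT 1, WT 2 and mutant 1 (mean 164 ± 27.3 SD, n = 3). In Tfh-like cells it was at 31.5 ± 8.39 CPM (n = 4), in cluster 6, led by replication genes such as Mcm5 and Rrm2, at 19.1 ± 3.94 CPM (n = 3), and in receptor-stimulated-like cells, which carry Egr and Nr4a transcripts, at 18.1 ± 4.31 CPM (n = 3). The naive- or memory-like libraries all lay above the libraries of every other class, and 99.2 CPM in gut-homing-like cells of 1 library came next by mean. Further down the order, neighbouring classes overlapped.

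Ddit4 was highest in Tfh-like cells, with 180, 169, 193 and 253 CPM in WT 1, WT 2, mutant 1 and mutant 2 (mean 199 ± 37.6 SD). Naive- or memory-like cells followed at 162 ± 14.9 CPM (n = 3); their ranges overlapped, although Tfh-like cells were the higher in 3 of 3 libraries that had both. At the low end stood cytotoxic-like cells, marked by Eomes, Nkg7 and Prf1, with 47.7, 43.3 and 42.7 CPM (mean 44.6 ± 2.77 SD), and the low-UMI cluster 9 with 45.9 ± 16.6 CPM (n = 3). Every library of the other classes was above these 2 classes for Ddit4.

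Fkbp5 had a flat profile by comparison. Its means ran from 135 ± 46.0 CPM in Tfh-like cells (n = 4) to 65.3 ± 24.1 CPM in cytotoxic-like cells (n = 3), and all neighbours in the order overlapped between libraries. The SD of its classes and the order of their means contain the genotype difference. In Tfh-like cells the WT libraries were at 92.2 and 99.8 CPM and the mutant libraries at 160 and 187 CPM. In WT 1 and WT 2, cluster 4 (106 and 134 CPM) and cluster 6 (108 and 112 CPM) were above Tfh-like cells. Tfh-like cells were above cluster 4 in 1 of 4 libraries and above cluster 6 in 1 of 3. Naive- or memory-like cells, the class richest in Tsc22d3, were at 91.0 ± 24.5 CPM for Fkbp5.

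Nr3c1 ran from 130 ± 6.16 CPM in Tfh-like cells (n = 4) to 73.6 ± 27.4 CPM in cytotoxic-like cells (n = 3), so the receptor transcript was found in every class. In cytotoxic-like cells mutant 1 (103 CPM) was well above WT 1 (68.7 CPM) and WT 2 (49.0 CPM), from 17 to 59 UMIs. Receptor-stimulated-like cells were at 95.2 ± 3.398 CPM, below naive- or memory-like cells at 116 ± 2.21 CPM (n = 3 each), with no overlap of the libraries.

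Per1 and Sgk1 were sparse. Per1 was highest in cluster 9 (25.8 ± 6.97 CPM, n = 3, 13 UMIs in all) and lowest in cluster 1 (6.96 ± 1.602 CPM, n = 4, 21 UMIs), where every library was below every naive- or memory-like library. Receptor-stimulated-like cells were at 17.0 ± 4.76 CPM (n = 3). Sgk1 was at 22.5 CPM in the single gut-homing-like library (10 UMIs) and at 21.1 ± 12.6 CPM in naive- or memory-like cells (n = 3), down to 6.07 ± 4.72 CPM in Tfh-like cells (n = 4) and 4.49 ± 1.79 CPM in cluster 6 (n = 3, 12 UMIs). No pair of neighbouring classes was apart for Sgk1.

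**Figure D3:**
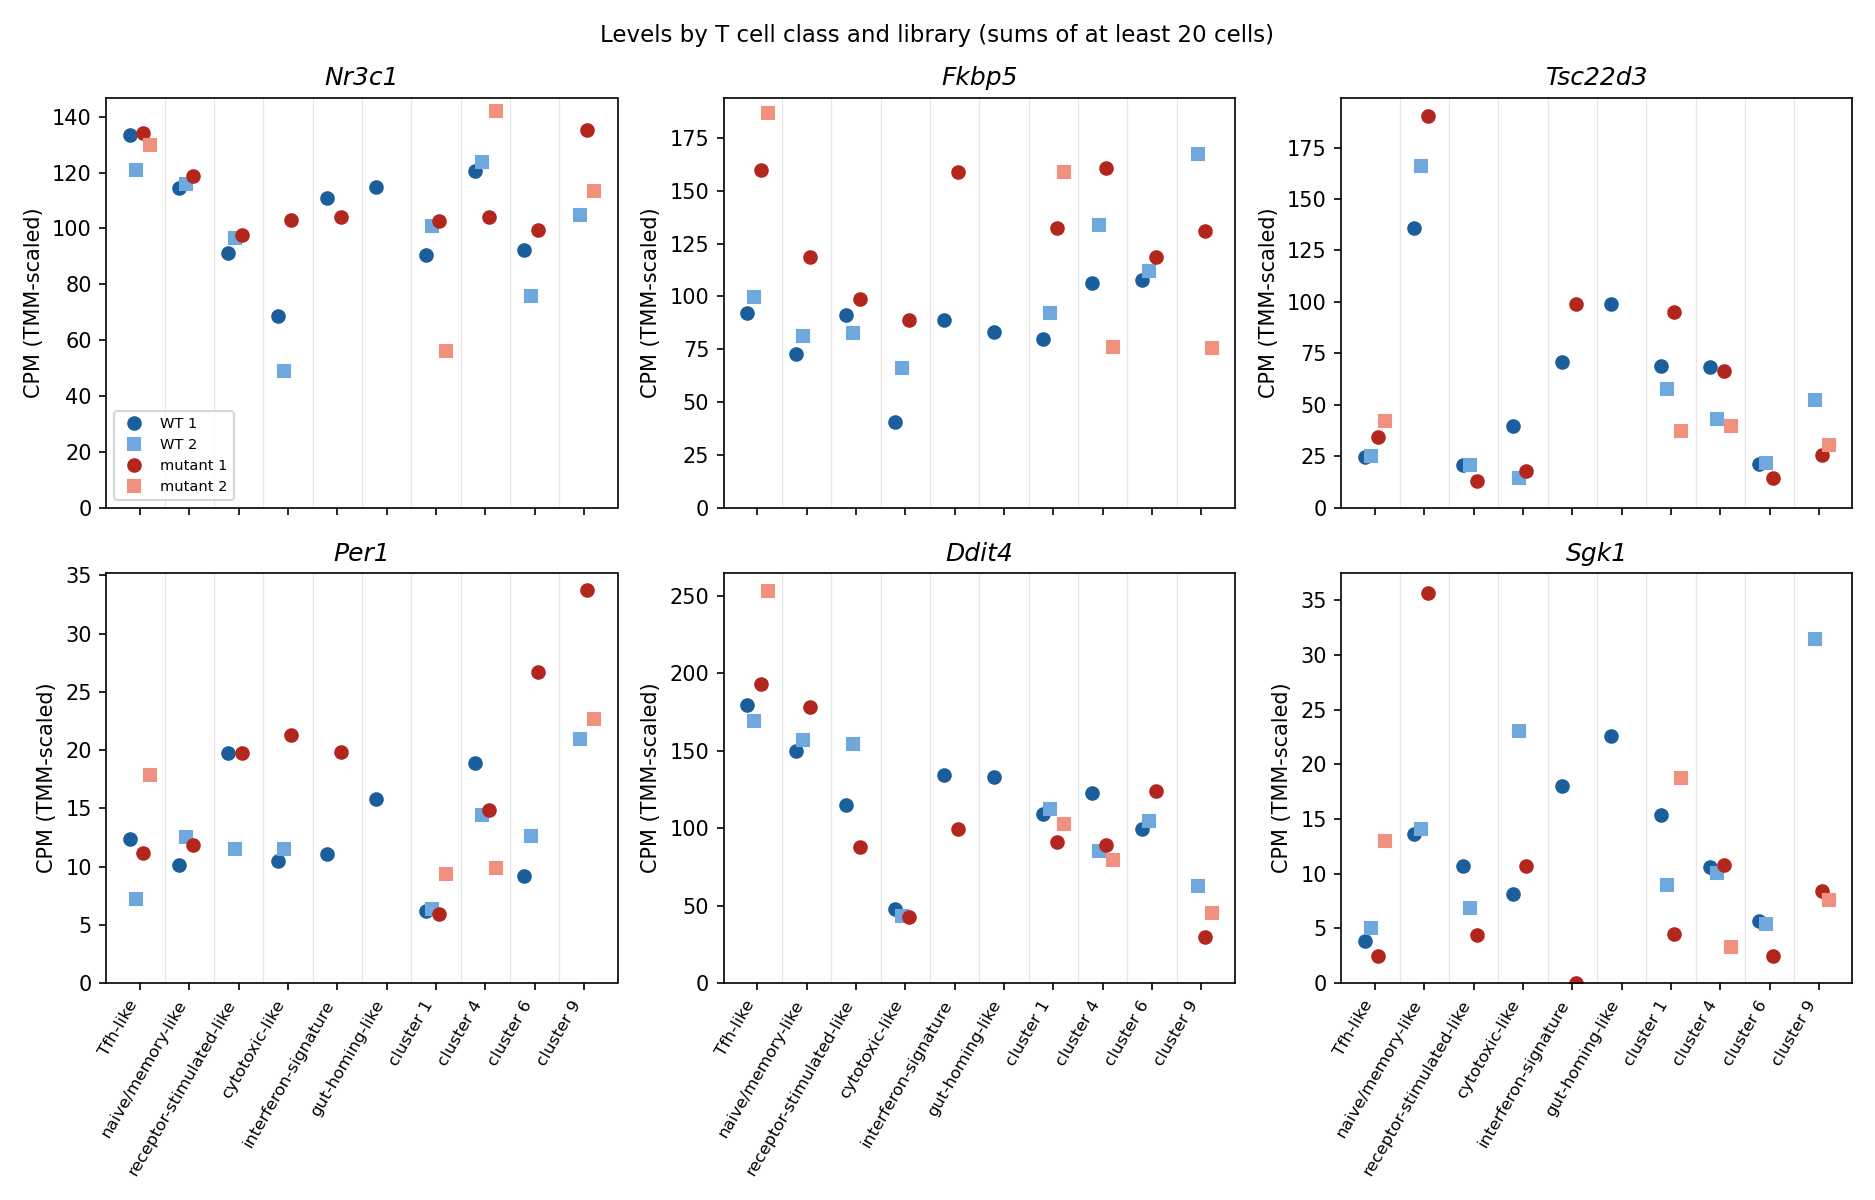
Level in CPM (y axis, from 0) of each gene in each T cell class (x axis), 1 point per library with at least 20 cells of the class; blue points are WT and red points mutant libraries. The naive- or memory-like sums stand above all others for Tsc22d3 (136 to 190 CPM), Ddit4 is lowest in cytotoxic-like cells and cluster 9, and Fkbp5 overlaps between neighbouring classes.

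Over the 30 class sums the correlations among the 6 genes were low to moderate. Pearson's r between pairs of them on log2(CPM + 1) lay between -0.34 (Per1 and Ddit4) and 0.33 (Nr3c1 and Ddit4); Fkbp5 and Tsc22d3 had r = 0.08 and Fkbp5 and Ddit4 r = 0.25. With each library's mean removed, r lay between -0.31 (Per1 and Ddit4) and 0.43 (Fkbp5 and Ddit4). These sums share libraries and classes, so the values describe them and carry no p. Among 7653 genes with a mean of at least 10 CPM, those most like Fkbp5 were Myef2 (r = 0.73), Hk1 (0.70), Pafah1b1 (0.66), Calhm2 (0.66) and Nit1 (0.63). The closest to Ddit4 were Rgs10 (0.90) and Trappc1 (0.82), to Tsc22d3 Ms4a6b and Camk4 (both 0.76), and to Nr3c1 Snx13 (0.76) and Prpf18 (0.73). For Per1 they were Slk (0.75) and C2cd3 (0.71), and for Sgk1 Hist4h4 (0.79) and Parp6 (0.73). None of the other 5 genes was among these.

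In single cells, each thinned to 3000 UMIs to set depths equal, a Fkbp5 UMI was found in 20.6% of WT 1 cells (95% Clopper-Pearson interval 18.4 to 22.9%), 25.3% of WT 2 (21.9 to 28.9%), 32.3% of mutant 1 (29.2 to 35.6%) and 28.8% of mutant 2 (21.9 to 36.4%). Unthinned, the shares were 44.2, 50.2, 60.3 and 55.5%. The intervals cover counting error over cells only, and that of mutant 1 lay above those of both WT libraries while that of mutant 2 overlapped all 3 others. Shallower cells were left out, 13 to 34 per library. These genes are active in most cell types, so no class here serves as a negative for free RNA. For Tsc22d3 the thinned shares were 15.3, 11.3, 11.2 and 13.8%, and for Ddit4 27.6, 28.5, 27.4 and 28.8%.

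Cells with a Fkbp5 UMI were compared with the rest for the other genes. In WT 1, Tsc22d3 was seen in 10.8% of the 260 cells with Fkbp5 and in 16.5% of the 1004 without. In WT 2 the order was the opposite, 16.1% of 155 cells against 9.61% of 458, and in mutant 1 the shares were close, 11.7% of 274 against 10.98% of 574. In mutant 2 they were 17.4% of 46 against 12.3% of 114, so the share was higher beside Fkbp5 in 3 of 4 libraries. Ddit4 was seen in 50% of the Fkbp5-positive cells of mutant 2 and in 20.2% of its other cells. In WT 1, WT 2 and mutant 1 its shares were 30 against 27.0%, 28.4 against 28.6% and 30.3 against 26.0%. Pearson's r between Fkbp5 and each other gene over cells lay between -0.09 and 0.18, which in sparse counts is not a finding.

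The wider pathway was examined with 3 lists written from general knowledge. These lists, and the list of immediate-early and stress genes below, were chosen with earlier results of these data known. Their counts and p-values therefore describe the lists and are not independent tests. Of 25 genes of the receptor complex and of steroid handling, 21 could be tested. The 1 past the threshold was Fkbp5 itself, which this same contrast chose, with none lower. Of all genes, 0.904% were higher and 0.531% lower. At an unadjusted p under 0.05 in edgeR's test, 2 of the list were higher and none lower, where 7.27% and 5.35% of all genes were. The median log2 fold change was -0.02, beside -0.00 over all genes. None of the chaperones that hold the receptor passed. Hsp90ab1 was at 2877 and 2687 CPM (WT) against 2865 and 2625 CPM, Hsp90aa1 at 573 and 541 against 529 and 549 CPM, Hspa8 at 1974 and 1543 against 1548 and 1338 CPM, and the Hsp40 co-chaperone Dnaja1 at 696 and 599 against 559 and 494 CPM. Their adjusted p-values in edgeR's test were 0.406 to 0.972. Nrip1, a nuclear receptor co-repressor, was at 543 and 602 against 601 and 691 CPM (adjusted p = 0.6504, edgeR). Fkbp4, the close relative that competes with Fkbp5 for Hsp90 and was picked out after its values were seen, was at 95.5 and 75.7 CPM against 68.5 and 74.2 CPM (log2 fold change -0.28 ± 0.15, adjusted p = 0.451, edgeR), the opposite sign to Fkbp5.

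Hsd11b1, also named after its values were seen, encodes the enzyme that turns inert 11-keto steroids into active glucocorticoid. It was at 43.4 and 64.5 CPM (WT) against 86.6 and 65.2 CPM (mutant) (log2 fold change 0.55 ± 0.18, adjusted p = 0.171, edgeR). WT 2 and mutant 2 were nearly equal, and the difference was 0.08 when 4 clusters had equal weight.

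Of 40 other genes known to be induced by glucocorticoids, 32 could be tested. The median log2 fold change was -0.07. At an unadjusted p under 0.05 in edgeR's test, 2 were higher and 5 lower, where 7.27% and 5.35% of all genes were. Past the adjusted threshold none was higher and 1 was lower, where 0.904% and 0.531% of all genes were. The 1 was Txnip, an arrestin that lowers glucose uptake and binds thioredoxin, at 105 and 98.9 CPM (WT) against 69.8 and 64.0 CPM (mutant) (log2 fold change -0.59 ± 0.13, adjusted p = 0.0326, edgeR). Its sign was the same in 18 of 18 alternative settings, from -0.69 to -0.42, and it was past the threshold in 7, and the call was lost without WT 1, without WT 2 or without mutant 1. The list's most abundant genes were Btg1, Id2, Nfkbia, Btg2 and Zfp36l2. Id2, an inhibitor of basic helix-loop-helix factors, was at 353 and 313 CPM against 227 and 245 CPM (-0.50 ± 0.13, adjusted p = 0.0783, edgeR), and the antiproliferative Btg1 at 1589 and 1611 against 1373 and 1388 CPM. Nfkbia, the NF-κB inhibitor that glucocorticoids raise, was at 277 and 246 against 304 and 193 CPM, Btg2 at 252 and 223 against 200.1 and 233 CPM, and the RNA-binding Zfp36l2 at 180 and 202 against 238 and 180 CPM; these 3 overlapped. At the ends of the list, chosen after their values were seen, stood Rgs2 (-0.84 ± 0.24) and Xdh (0.76 ± 0.23), with adjusted p-values of 0.109 and 0.139 in edgeR's test.

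Of 14 cytokine and inflammatory genes that glucocorticoids are known to repress, 6 had enough counts and none passed in edgeR's test. At an unadjusted p under 0.05, 3 were higher and none lower, where 7.27% and 5.35% of all genes were, and the median was 0.32. The list of 20 immediate-early and stress genes, which shares Dusp1, Zfp36 and Btg2 with the induced list, was on 1 side of 0: all 17 tested members had a log2 fold change below it, as had 50.2% of all genes, with a median of -0.49. Past the threshold were 4, where 0.531% of all genes were lower, among them Fos (-1.64 ± 0.19, adjusted p = 0.000243, edgeR) and Hspa1a (-1.52 ± 0.28, adjusted p = 0.00945, edgeR). The part of these transcripts in the values of Txnip and the glucocorticoid-induced list was not tested.

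**Figure D4:**
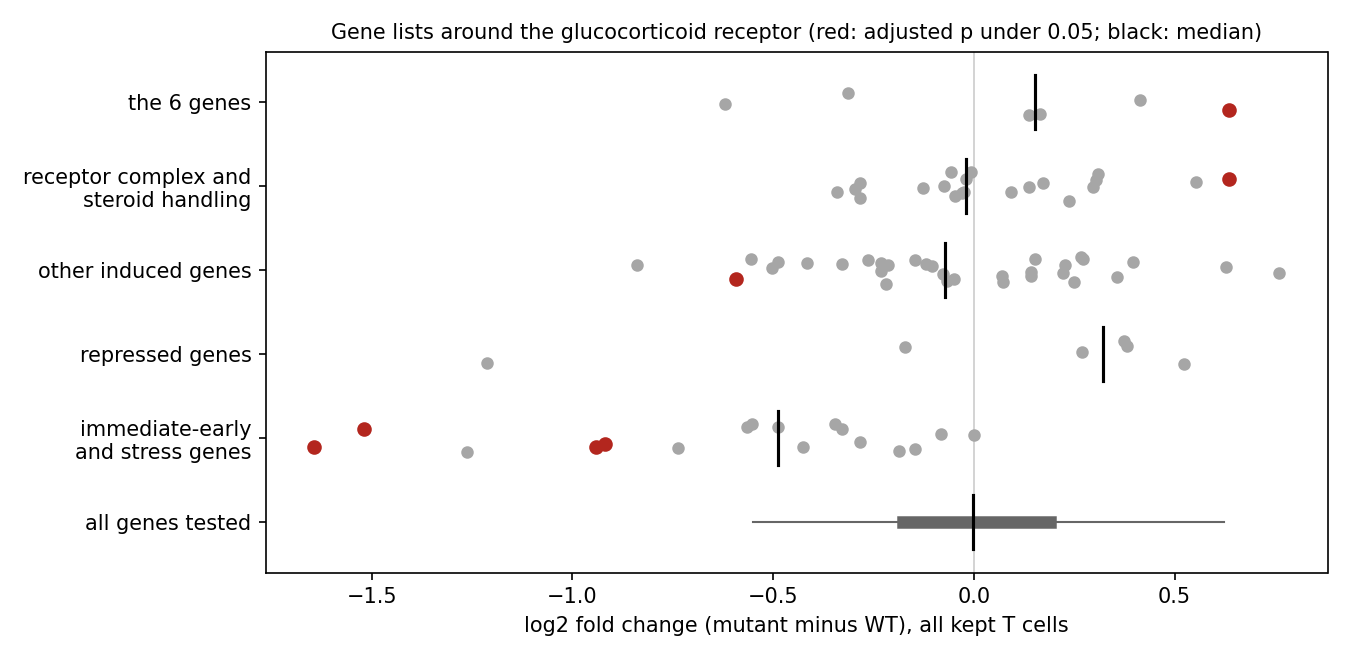
Log2 fold change (mutant minus WT, all kept T cells, x axis) of each tested gene in 5 lists, 1 point per gene, red where the adjusted p was under 0.05, with the list's median as a black line; Fkbp5 is in the top 2 lists. The bottom line shows all 10727 genes (thick bar, 25th to 75th percentile; thin line, 5th to 95th). The receptor complex and induced lists centre near 0 (medians -0.02 and -0.07), and the immediate-early list lies left of 0 (median -0.49).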

How the data were processed

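The 4 matrices the authors deposited hold UMI counts for each gene in each barcode of 10x 3′ libraries. The submitters' processing notes name Cell Ranger 6.0.0, Seurat 4 and mm10. Cells with at least 500 genes and at most 10% mitochondrial UMIs were kept (3108 of 4803), less 31 Scrublet doublets and 105 cells of an epithelial-named cluster. Clusters came from scanpy 1.11.5 and leidenalg 0.10.2 (2000 variable genes without the 6 genes and their lists, 30 components, 15 neighbours, resolution 0.8, seed 0). A cluster was named from at least 3 of a class's markers among its 50 leading genes with 2-fold enrichment. Counts were summed per library, or per library and class with at least 20 cells, and tested in edgeR 4.0.16 (filterByExpr, TMM, quasi-likelihood, Benjamini-Hochberg at 0.05) in R 4.3.3, with limma 3.58.1. DESeq2 1.42.0, other scalings, filters, cell sets and resolutions were alternatives. The script was tested on simulated data. Cells were read with anndata 0.12.19 and scipy 1.17.1 under Python 3.11.15, and figures drawn with matplotlib 3.10.9. Promoter sequences are RefSeq's and gene positions GENCODE's, both on GRCm38. The genes and lists were chosen with earlier results of these data known. Genes named beside the 6 were those past the threshold in the induced and receptor lists, the 5 most abundant of each, Fos and Hspa1a, and the genes most correlated with each of the 6; any other is marked as picked out after its values were seen. The 2 samples labelled as hashtag libraries had no matrix of their own and were not analysed here.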

Additional observations from a re-analysis of the deposited data

How the results depend on the processing

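Counts of genes past the threshold (97 higher, 57 lower) were 45 and 30 with library totals only, 25 and 26 with DESeq2, 240 and 171 without a low-count filter, 20 and 21 at equal cluster shares, 57 and 37 with doublets kept, and 40 and 26 without naive- or memory-like cells. Both were 0 with the epithelial-named cells kept (958 genes at an unadjusted p under 0.05, edgeR) and with all barcodes (612). Leaving out 1 library gave 12 to 167 higher and 10 to 100 lower. With the replicate number as a block they were 236 and 145. The replicate 1 minus 2 difference in WT correlated at 0.03 over genes with the same difference in the mutant. The numbers are therefore taken only as names of libraries. For the induced list the count lower (1) was 5 without a filter and with the block, and 0 with library totals, DESeq2, equal shares, doublets, epithelial-named cells or all barcodes kept, the lists kept in the clustering, or no naive- or memory-like cells. For the receptor list the count higher (1) was 2 without a filter and with the block, and 0 with DESeq2, epithelial-named cells or all barcodes kept, or no naive- or memory-like cells. The class-by-genotype count (11) was 7 and 6 at resolutions 0.5 and 1.2, 105 with the lists kept in the clustering, and 1 to 17 without 1 library. Without 1 library the induced list had 0 to 3 lower and the receptor list 0 to 2 higher. At equal shares Nr3c1 was -0.011 and Tsc22d3 0.35. Sgk1 ran from -0.997 to 0.076 without 1 library. The class-by-genotype differences without 1 library ran from -0.070 to 0.73 (Nr3c1), -0.12 to 1.50 (Tsc22d3) and -0.11 to 0.71 (Per1). At resolution 0.5 Nr3c1 was -0.012 and Per1 -0.10, and with the lists kept in the clustering Per1 was -0.47. Where a count or sign changed, the cause was not tested. Per1 and Sgk1 are limited by depth.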
